A study of Mus musculus with 8 samples.

Results

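The 9 genes described here encode transcription factors of the macrophage lineage: *Spi1*, *Cebpa*, *Cebpb*, *Maf*, *Klf2*, *Klf4*, *Klf6*, *Runx1* and *Bhlhe40*. They were followed across 4 lists of N6-methyladenosine (m6A) peaks from mouse bone marrow-derived macrophages (BMDMs), and a peak was taken as theirs when the coding gene with the largest exon overlap on the same strand was one of the 9. Of 21866 protein-coding genes with a coding transcript, 6971 had a peak in at least 1 list, and 7 of the 9 factors were among them. *Spi1* and *Cebpa* had none.

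BMDMs were grown from C57BL/6 mice aged 8 weeks, in medium with M-CSF at 40 ng/mL for 7 days. There were 2 WT samples, from *Mettl3* fl/fl Lyz2+/+ mice (labelled wild type), and 2 KO samples, from *Mettl3* fl/fl Lyz2 cre/+ mice (labelled Mettl3-/-). Both genotypes thus carried the floxed allele of *Mettl3*, the catalytic subunit of the m6A writer, and the KO mice also carried Cre in the *Lyz2* locus, which is active in myeloid cells. Deletion with this Cre is known to be incomplete, and WT controls lacked Cre. MeRIP-Seq pulls down RNA fragments with an antibody against m6A and sequences them beside input RNA, and each sample had an IP and an input library behind a peak list of its own. Values below are given with sample 1 before sample 2 of each genotype. The labels do not say whether the samples of a genotype came from separate mice or cultures, so every spread and p-value refers to these samples and may be technical.

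The lists held between 6159 and 6684 peaks, of which 94.8% to 96.2% were assigned to a gene. They give a position and a peak caller score but no read counts, so the depth is unknown, levels could not be compared between samples, and the absence of a peak cannot be told apart from a transcript with few reads. *Mettl3* had no peak in any list, so the deleted gene gave no check of the genotypes. Of 8 macrophage marker genes only *Mertk* had a peak in all 4 lists, and 5 (*Csf1r*, *Adgre1*, *Cd68*, *Itgam* and *Lyz2*) had none. Of 12 markers of other bone marrow cells, *Col1a1* and *Siglech* had a peak in KO-1 and the other 10 had none. A list of m6A peaks does not show whether a marker was expressed.

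These factors act in layers. PU.1, the product of *Spi1*, opens the enhancers of myeloid cells together with the C/EBP proteins, and RUNX1 acts above it during the emergence of blood cells. C-MAF takes part in the mature macrophage programme, the Krüppel-like factors KLF2, KLF4 and KLF6 tune inflammatory gene expression, and BHLHE40 is a basic helix-loop-helix repressor. The m6A writer methylates adenosines in a short context whose best-known core is GGAC, mostly in long internal exons and around the stop codon, and reader proteins then bind the mark and alter the decay or translation of the RNA.

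The sequences below show the GGAC closest to the middle of the stretch that overlapping peaks had in common, for the 7 regions with a peak in all 4 lists and for 2 further regions that the results turn on. Each is printed 5′ to 3′ on the strand of the gene (GRCm38 sequence from RefSeq), with GGAC in capitals and 12 bases on each side. A GGAC under a peak is a match of letters and not a mapped m6A site.
Cebpb, CDS: caagaagacggtGGACaagctgagcgac
Klf2, 3′-UTR: taggacagagccGGACaagtgtggccac
Bhlhe40, CDS: attggagaagggGGACttgcgcagtgag
Klf6, CDS of exon 2: cagtgagtcttcGGACagttcagaggaa
Maf, 5′-UTR: ccggcgcctccgGGACagccacccgccg
Maf, 3′-UTR: cacacataccctGGACttgcacaagggt
Runx1, 5′-UTR: ataaatattttaGGACgcgtatgggaat
Runx1, 3′-UTR next to the stop codon: atcgccatcgagGGACtgggcctgccgt
Runx1, 3′-UTR, peak in the WT samples only: gcaaaaacggctGGACttatttaaaaaa

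The windows lie, in the same order, at chr2:167689663-167689690 (+), chr8:72321013-72321040 (+), chr6:108664840-108664867 (+), chr13:5864995-5865022 (+), chr8:115707389-115707416 (-), chr8:115705356-115705383 (-), chr16:92696090-92696117 (-), chr16:92605617-92605644 (-) and chr16:92603888-92603915 (-). The windows of *Bhlhe40*, of the *Maf* 3′-UTR and of both *Runx1* 3′-UTR regions read GGACT, whereas those of *Cebpb*, *Klf2*, *Klf6* and the *Maf* 5′-UTR read GGACA and that of the *Runx1* 5′-UTR reads GGACG. The *Klf2* match began 106 nt after the stop codon, and the last base of the *Runx1* match next to the stop codon lay 26 nt after it.

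The first question was whether the factors carried peaks in every sample. *Cebpb*, *Maf*, *Klf2*, *Klf6*, *Runx1* and *Bhlhe40* did so, which is 6 of the 7 factor genes with any peak, beside 30.5% of all peak-bearing genes. The factors were chosen with earlier results of these data known, so the comparison of these shares is not a test. *Klf4* had peaks in WT-2 and KO-2. None of the 7 had peaks in each WT sample but in no KO sample (3.97% of all peak-bearing genes), and none in each KO sample but in no WT sample (4.89%). Genes with a peak in all 4 lists were long in general, with a median of 5179 exonic bases against 2353 in the 14895 genes with no peak. Among the 6 factors, *Maf* (8241) and *Runx1* (8073) lay above 5179. *Klf6* (4225), *Bhlhe40* (3168), *Klf2* (1847) and *Cebpb* (1504) lay below it.

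The 7 genes held 15 and 15 peaks in the WT samples and 11 and 11 in the KO samples, whereas the whole lists were longer in KO than in WT. The means were 15 ± 0 (SD, n = 2) for WT and 11 ± 0 (SD, n = 2) for KO, a difference of -4 peaks. This difference was -0.5 when only the upper 50% of each list by score was used. Merging the overlapping peaks of the 4 lists gave 19 regions on the factor genes. Of these, 7 had a peak in all 4 lists (18.5% of all regions), 1 in each WT sample but in no KO sample (3.42%) and 0 in each KO sample but in no WT sample (6.02%). Peaks were also split differently, since on the first exon of *Runx1* and at the 5′ end of *Maf* a single KO peak spanned what was a pair of peaks in one or both WT samples.

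**Figure D1:**
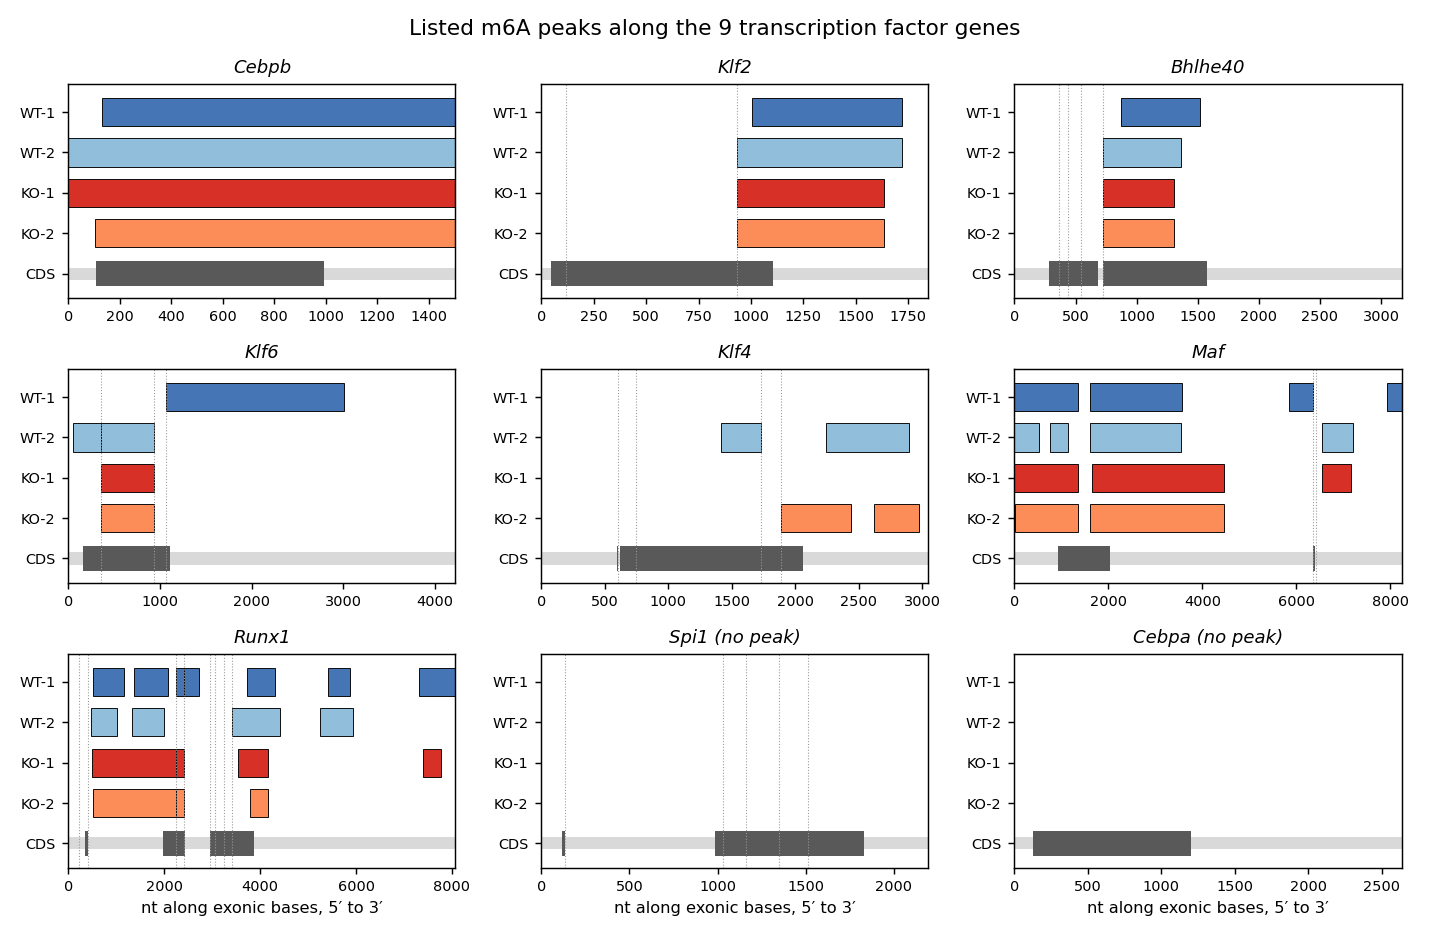
Peaks of each sample (WT in blue, KO in red and orange) along the exonic bases of the 9 genes, joined 5′ to 3′ in nt, with the coding sequence (CDS) in dark grey and dotted lines at the borders of exon blocks. Peaks cover *Cebpb* almost end to end, overlap in all 4 samples on *Klf2* and *Bhlhe40*, share no base across the 4 samples on *Klf4* and *Klf6*, and are absent from *Spi1* and *Cebpa*.

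Because the lists hold no counts, the genotypes were compared by the exonic bases that peaks covered on each gene. Coverage was higher in both KO samples than in either WT sample for *Maf*, which is 1 of the 7 genes with a peak, beside 18.8% of all peak-bearing genes, and lower in both KO samples for *Klf2*, *Klf6* and *Bhlhe40*, which is 3 of the 7 beside 8.65%. Among the 2125 genes with a peak in all 4 lists these shares were 29.4% and 9.69%. With 2 samples against 2 a two-sided exact permutation test cannot give a p below 0.333. After Benjamini-Hochberg adjustment of the exact permutation test over 6971 genes, 0 genes passed a threshold of 0.05, and 0 had an unadjusted p under 0.05, so none of these differences is shown to exceed the spread between samples. With the upper 50% of each list by score, *Maf* stayed higher and *Klf2* lower in KO without overlap, while *Klf6* and *Bhlhe40* overlapped. This left 1 lower gene beside 6.5% of the genes with a peak at that setting. For *Klf2* the KO-1 peak fell below that cut, with 715 and 788 bases in WT and 0 and 699 in KO. Leaving out 1 sample turned the sign of the difference for *Klf4* (456 without WT-2 and 429 without KO-1) and *Cebpb* (-52.5 without WT-1 and -40 without KO-1).

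*Spi1* and *Cebpa*, which encode the pioneer factor PU.1 and C/EBPα, had 0 peaks and 0 covered bases in each of the 4 samples. *Spi1* (ENSMUSG00000002111.8, chr2:91082390-91115756, +) has 2198 exonic bases and a longest exon of 898 bases. *Cebpa* (ENSMUSG00000034957.10, chr7:35119293-35121928, +) has 2636 exonic bases that form 1 unbroken block. *Spi1* held 18 GGAC, or 8.19 per kb, the highest density of the 9 genes, and *Cebpa* held 14, or 5.31 per kb. Whether the density of GGAC bears on the absence of peaks was not tested. Whether either transcript had enough reads for a peak cannot be read from the lists.

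*Cebpb* (ENSMUSG00000056501.3, chr2:167688915-167690418, +) encodes C/EBPβ, which drives inflammatory and polarization genes in macrophages, and consists of a single exon of 1504 bases. One peak per list covered 1374 and 1504 exonic bases in the WT samples and 1504 and 1399 in the KO samples, or 91.4%, 100%, 100% and 93.0% of the exon. Peaks thus ran over nearly the whole CDS and the 3′-UTR in every sample, and the genotypes overlapped. The means were 1439 ± 91.9 bases (SD, n = 2) for WT and 1452 ± 74.2 (SD, n = 2) for KO, a difference of 12.5 bases (two-sided exact permutation test, p = 1). At least 90% of the exonic bases were covered in all 4 lists on 8 of the 6971 genes (0.115%), and *Cebpb* was among them. All 4 *Cebpb* peaks ended at 167690432, which is the RefSeq transcript end and lies past the GENCODE end.

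The *Cebpb* peak had a score of 3100 in each list, a value that 10.3% to 19.5% of the peaks of a list reached or passed. A score of 3100 or more in all 4 lists was found for 4.17% of all peak-bearing genes, and *Cebpb* was the 1 factor gene in that group. Of its 12 GGAC, 9 lay under a peak in all 4 samples. A peak as wide as the transcript does not show which of them carried the mark.

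*Klf2* (ENSMUSG00000055148.7, chr8:72319033-72321656, +) encodes a factor that restrains inflammatory activation of myeloid cells. One peak per list lay in exon 3 over the stop codon and the 3′-UTR, and it covered 715 and 788 bases in the WT samples and 699 and 699 in the KO samples. Both KO peaks had the same start and end (chr8:72320744-72321442), and both WT peaks ended further 3′, at 72321531. The genotypes did not overlap, with 751.5 ± 51.6 bases (SD, n = 2) for WT and 699 ± 0 (SD, n = 2) for KO, a difference of -52.5 bases (two-sided exact permutation test, p = 0.333). It was -16 without WT-2 and -89 without WT-1. Scores were 1481.1 and 2287 in WT and 454.96 and 1713.67 in KO. Within its own list the *Klf2* peak stood above 79.0% and 80.6% of the peaks in WT and above 42.8% and 69.1% in KO. All 4 GGAC under the peaks lay in the stretch that the 4 samples shared, and 0 of the *Klf2* peaks held GGACT.

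Identical peak ends were a feature of the KO lists in general. The KO lists shared 1201 peaks with the same start and end, or 18.8% of KO-1 and 18.0% of KO-2, whereas the WT lists shared 276, or 4.48% of WT-1 and 4.41% of WT-2. On the factor genes 4 of the 11 KO peaks, on *Klf2*, *Bhlhe40*, *Klf6* and *Runx1*, and 0 of the 15 WT peaks were identical within the genotype. Many ends lay on exon ends, since 46.0% of all peaks and 44.2% of the factor peaks (23 of 52) had an end on a RefSeq exon edge.

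*Bhlhe40* (ENSMUSG00000030103.11, chr6:108660629-108666925, +) encodes a repressor that limits *Il10* in several immune cells. It had 1 peak per list, wholly in the CDS of exon 5, its last exon. The peak covered 646 and 645 bases in the WT samples and 583 and 583 in the KO samples. The genotypes did not overlap, with 645.5 ± 0.707 bases (SD, n = 2) for WT and 583 ± 0 (SD, n = 2) for KO, a difference of -62.5 bases (two-sided exact permutation test, p = 0.333). In the upper 50% of each list by score the *Bhlhe40* genotypes overlapped, with 0 and 645 bases in WT and 583 and 0 in KO. The near-equal widths in WT hid different positions, because the WT-1 peak ran from 108664629 to 108665274 and the WT-2 peak from 108664479 to 108665123, whereas both KO peaks ran from 108664479 to 108665061. The 433 bases common to all 4 samples held 6 GGAC, and GGAC stood at 8.79 per kb under the *Bhlhe40* peaks against 2.95 per kb in the rest of the exons. *Klf6* had the same order (4.92 and 2.17 per kb). The order was reversed for *Klf2* (5.08 and 7.55), *Klf4* (4.29 and 5.46), *Runx1* (2.55 and 2.97) and *Maf* (3.50 and 3.56). Scores did not follow genotype, with 224.27 and 1130.22 in WT and 1095.8 and 256.56 in KO.

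*Klf6* (ENSMUSG00000000078.7, chr13:5861482-5870394, +) encodes a factor that promotes inflammatory gene expression in macrophages, and its peaks lay in different exons in different samples. Both KO samples and WT-2 had a peak over the whole of exon 2, which is 577 bases of CDS (chr13:5864768-5865344). WT-1 had no peak there and had one of 1952 bases in exon 4 instead, 52 of them CDS and 1900 of them 3′-UTR. WT-2 also had a peak at the start codon in exon 1. Covered bases were therefore 1952 and 893 in WT and 577 and 577 in KO, with means of 1423 ± 749 (SD, n = 2) for WT and 577 ± 0 (SD, n = 2) for KO, a difference of -845.5 bases (two-sided exact permutation test, p = 0.333). It was -316 without WT-1 and -1375 without WT-2, and in the upper 50% by score WT-2 was level with both KO samples at 577 bases. The genotypes did not overlap in covered bases, yet WT-2 shared the exon 2 peak with both KO samples and shared no base with WT-1. A peak in all 4 lists with no base in common was seen on 364 genes, or 17.1% of the genes with a peak in all 4 lists. The exon 2 peak had a score of 3100 in WT-2 and of 1011.82 and 2899.52 in KO, and it held 4 GGAC.

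*Klf4* (ENSMUSG00000003032.8, chr4:55527143-55532466, -) encodes a factor of monocyte differentiation. Peaks covered 0 and 966 bases in the WT samples and 0 and 912 in the KO samples, so the samples of a genotype differed from each other and the genotypes overlapped (a difference of -27 bases, two-sided exact permutation test, p = 1). WT-2 had a peak of 313 bases in the CDS of exon 3 and one of 653 bases in the 3′-UTR. KO-2 had a peak of 550 bases over the stop codon and one of 362 bases in the 3′-UTR, and both overlapped the 3′-UTR peak of WT-2. Scores were low to middling within the lists, with the 4 peaks above 10.8% to 50.4% of the peaks of their list.

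**Figure D2:**
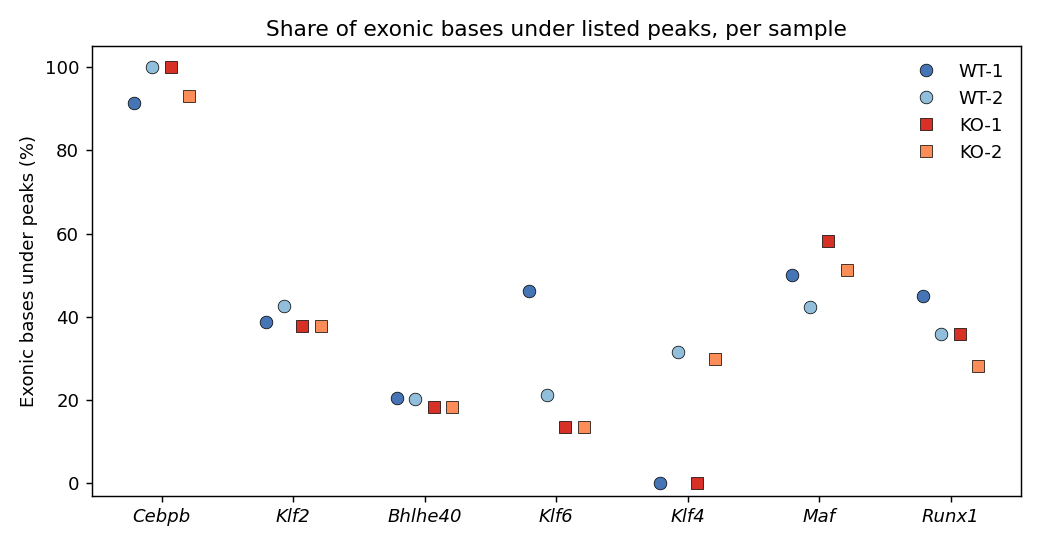
Share of exonic bases under peaks (%, vertical axis) for the 7 genes with a peak, 1 point per sample (circles WT, squares KO). *Cebpb* lies between 91.4% and 100% in all 4 samples, KO points lie below both WT points for *Klf2*, *Bhlhe40* and *Klf6* and above them for *Maf*, and *Klf4* is at 0 in WT-1 and KO-1.

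*Maf* (ENSMUSG00000055435.6, chr8:115682942-115707794, -) encodes c-MAF, a basic leucine zipper factor that limits self-renewal of macrophages and drives *Il10*. It has an unspliced transcript of 6360 bases (ENSMUST00000109104.1) and a spliced one with a distal last exon (ENSMUST00000069009.6). Peaks covered 4128 and 3492 bases in the WT samples and 4797 and 4215 in the KO samples. The genotypes did not overlap, although KO-2 lay close to WT-1, with means of 3810 ± 450 (SD, n = 2) for WT and 4506 ± 412 (SD, n = 2) for KO, a difference of 696 bases (two-sided exact permutation test, p = 0.333). It was 1014 without WT-1, 378 without WT-2, 405 without KO-1 and 3258 in the upper 50% by score, where both WT peaks over the stop codon dropped out. The number of *Maf* peaks went the other way, at 4 and 4 in WT and 3 and 2 in KO.

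Both regions of *Maf* with a peak in all 4 lists lay in the exon of the unspliced transcript. The spliced transcript shares nearly all coding bases of that exon, so the coding parts of these regions do not tell the transcripts apart. The region at the 5′ end covered the 5′-UTR and the start of the CDS (chr8:115706434-115707794), as a pair of peaks in WT-2 and as a single peak in the other samples. The region over the stop codon reached into the 3′-UTR (chr8:115703324-115706192), with peaks of 1940 bases in both WT samples and of 2824 and 2858 bases in KO. Both KO peaks reached the same base 3′ of the end of the WT peaks. The score there was 501.04 and 582.18 in WT and 1988.81 and 1851.02 in KO, which placed the peak above 49.4% and 44.2% of the peaks in the WT lists and above 76.9% and 70.6% in the KO lists. The KO peaks there held 10 GGAC each and the WT peaks 6.

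The other 3 *Maf* regions were found in 1 or 2 samples. The distal last exon of the spliced transcript had a peak in WT-2 and KO-1 (chr8:115683975-115684627) and another in WT-1. The 3′ part of the unspliced exon had a peak in WT-1 with a score of 57.98, above 0.779% of the peaks of that list. Of 29 GGAC on *Maf*, 20 lay under a peak of some sample and 9 under a peak in all 4.

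*Runx1* (ENSMUSG00000022952.17, chr16:92601466-92826149, -) encodes the DNA-binding subunit of the core binding factor and is transcribed from a distal and a proximal promoter. It had 7 and 4 peaks in the WT samples and 4 and 3 in the KO samples, which covered 3629 and 2889 bases in WT and 2903 and 2277 in KO. The genotypes overlapped, as KO-1 lay above WT-2. The means were 3259 ± 523 (SD, n = 2) for WT and 2590 ± 443 (SD, n = 2) for KO, a difference of -669 bases (two-sided exact permutation test, p = 0.667). It was -299 without WT-1, -1039 without WT-2 and -356 without KO-2.

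The *Runx1* peaks at the 5′ end lay on the first exon of the transcript that starts at the proximal promoter (ENSMUST00000113956.9), mostly in its 5′-UTR. The first 2 exons of the transcript from the distal promoter (ENSMUST00000023673.13) hold 332 bases, of which 0 were covered in each of the 4 samples. On the proximal first exon WT-1 had peaks of 709 and 649 bases and WT-2 of 668 and 526 bases, whereas the KO samples had a single peak of 1743 and 1737 bases. The peak next to the start codon had a score of 1430.65 and 3100 in WT, and the single KO peak had 3100 in both samples. The upstream WT peaks were lower, at 332.45 and 107.85.

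The region at the *Runx1* stop codon in exon 8 had a peak of 583 and 999 bases in WT and of 639 and 383 bases in KO. A region of exon 4 was present in both KO samples and in WT-1 and absent in WT-2, and its score reached 3100 in KO-1. It covers 157 exonic bases and extends past the annotated exon. The 1 factor region with a peak in each WT sample but in no KO sample lay in the 3′-UTR (chr16:92603595-92604290), with a score of 128.89 and 1549.65. That peak stood above 11.7% of the peaks in WT-1 and above 71.8% in WT-2, so its rank differed widely within the genotype. In the upper 50% by score it was left in WT-2 alone, and the region at the stop codon was the one present in each WT sample but in no KO sample. The other regions were a peak in WT-1 on the last exon of a short transcript and a region at the 3′ end in WT-1 and KO-1. Of the bases covered in any sample, 31.7% were covered in all 4, beside a median of 35.6% over genes with a peak in all 4 lists.

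**Figure D3:**
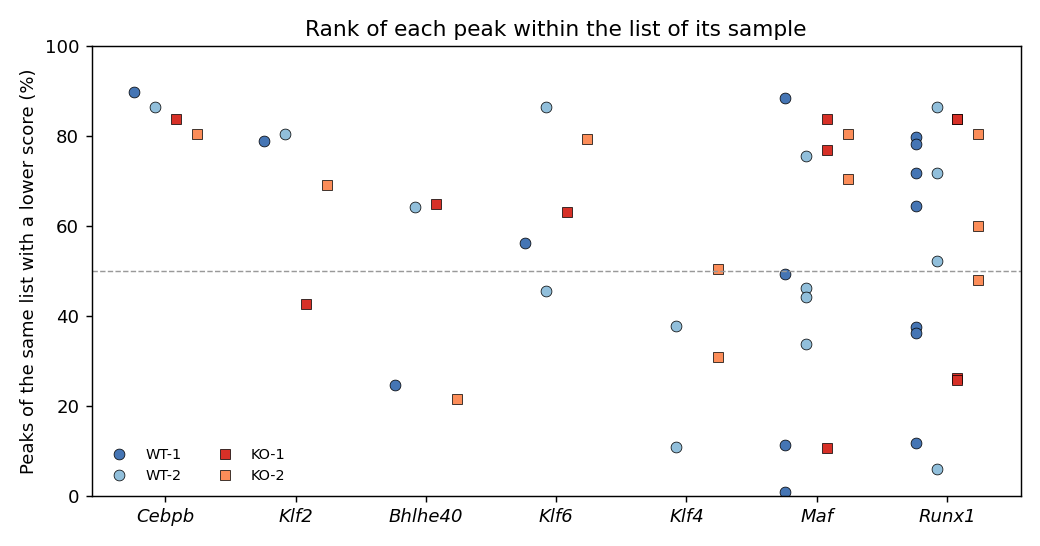
Rank of each factor peak within the list of its own sample, as the share of peaks of that list with a lower score (%, vertical axis), 1 point per peak (circles WT, squares KO) and a dashed line at 50%. *Cebpb* lies between 80.5% and 89.7% in all 4 samples, *Bhlhe40* lies above the line in WT-2 and KO-1 only, and the peaks of *Maf* and *Runx1* spread over most of the range. Peaks with a score of 3100, as all 4 of *Cebpb*, are tied within a list. Their rank differs between lists only by the share of peaks that reached or passed that score.

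Within the upper 50% of each list by score, the factors had 8 and 8 peaks in WT and 7 and 8 in KO. *Cebpb*, *Maf*, *Klf6* and *Runx1* still had a peak in all 4 lists at that threshold, as did 23.9% of the 4401 genes with any peak there, and *Klf2* had one in 3 lists, *Bhlhe40* in 2 and *Klf4* in 1. Of the 52 factor peaks, 11 (21.2%) had a score of 3100 or more, beside 15% of all 25484 peaks.

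The peaks of a gene also varied between the samples of a genotype. The Jaccard index, the bases covered in both samples over the bases covered in either, was higher between the KO than between the WT samples for *Cebpb* (0.930 and 0.914), *Maf* (0.865 and 0.589), *Klf2* (1 and 0.907), *Klf6* (1 and 0), *Runx1* (0.774 and 0.492) and *Bhlhe40* (1 and 0.622), and was 0 in both genotypes for *Klf4*. Over genes with a peak in all 4 lists the median was 0.745 between the KO and 0.554 between the WT samples, so the factors showed the order that these genes showed in general.

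GGAC was present in 93.8% ± 4.30 (SD, n = 4 lists) of the factor peaks and in 87.3% ± 0.755 (SD, n = 4 lists) of all assigned peaks. The median width of a factor peak, between 583 and 653 bp, was above that of all peaks, between 478 and 543 bp, so the central 200 bases were searched as well. There the shares were 68.6% ± 10.6 for the factor peaks and 62.2% ± 1.30 for all peaks (SD, n = 4 lists), a difference smaller than the spread of the factor peaks between lists. Of 99808 tiles of 200 exonic bases outside peaks, 50.8% held GGAC. The midpoint of a factor peak lay in the CDS for 43.2% ± 12.4 (SD, n = 4 lists) of those that could be placed on the longest coding transcript, against 49.5% ± 3.22 of all peaks, again within the spread.

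The other myeloid factors and the paralogues give the setting for these genes. Of all 21866 protein-coding genes, 2125 had a peak in all 4 lists. Of 24 other myeloid transcription factors, 5 had a peak in all 4 lists, 15 in some and 4 in none, and for 0 of them was a peak present in both samples of a single genotype and absent from the other. The 5 were *Zeb2*, a zinc finger repressor of the mononuclear lineage, *Mitf*, a helix-loop-helix leucine zipper factor, *Fli1*, an ETS factor like PU.1, the haem-regulated repressor *Bach1*, and *Rbpj*, the DNA-binding partner of Notch.

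The genes listed with the C/EBP members differed among themselves. *Cebpz* was listed by its symbol, and its place in the family was not examined. *Cebpd*, *Cebpg* and *Cebpz* had a peak in all 4 lists as *Cebpb* had, *Ddit3* in 3 and *Cebpe*, the granulocyte member, in none, which also held for *Cebpa*. On *Cebpd*, which like *Cebpb* is induced by inflammation, peaks covered 1292 and 1284 bases in WT and 1618 and 1557 in KO. On *Cebpz* they covered 850 and 947 in WT and 1117 and 1493 in KO. Higher coverage in KO without overlap was found for 29.4% of the genes with a peak in all 4 lists. On *Cebpg* the genotypes overlapped, with 1860 and 1160 bases in WT and 1268 and 1187 in KO. Of the 14 other KLF genes, *Klf3*, *Klf7*, *Klf10* and *Klf13* had a peak in all 4 lists and 8 had none. *Klf9* had a peak in both KO samples, of 1616 and 1473 covered bases, but in no WT sample, and it was the only gene of these lists of factors with that pattern.

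Of 5 other MAF genes, *Mafk*, a small MAF protein without an activation domain, had a peak in all 4 lists, and 3 had none. The closest relatives of PU.1, *Spib* and *Spic*, had peaks in 2 lists each, *Spib* in WT-2 and KO-2 and *Spic* in WT-1 and KO-1. *Runx2* had a peak in KO-1, *Runx3* in WT-1 and KO-2, and *Cbfb*, the partner of RUNX1, in KO-2. *Bhlhe41*, the paralogue of *Bhlhe40*, had a peak in KO-1, KO-2 and WT-2. Peaks in every sample were found on 1 or more relatives of the C/EBP, KLF and MAF members and on none of those of *Spi1*, *Runx1* and *Bhlhe40*.

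**Figure D4:**
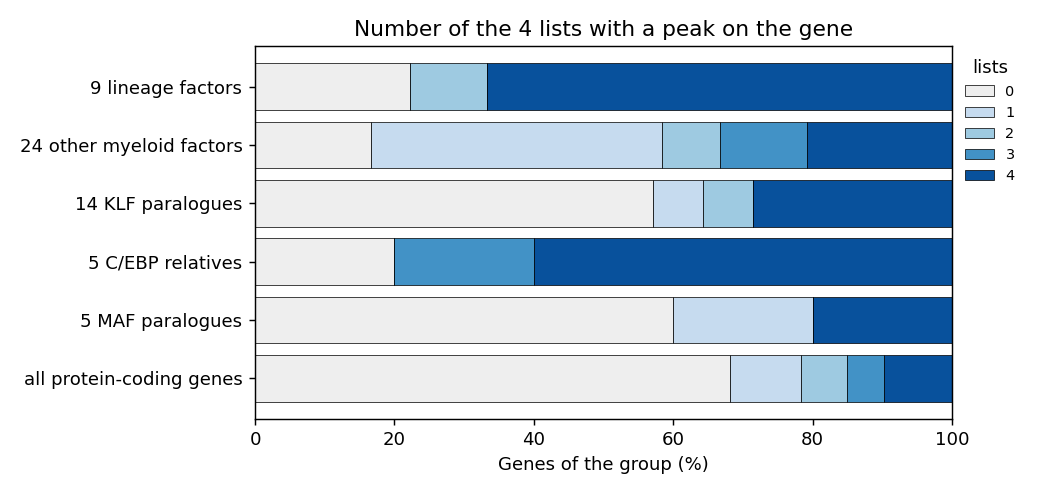
Share of genes (%, horizontal axis) by the number of the 4 lists with a peak on the gene, from 0 (light) to 4 (dark), for the 9 lineage factors, lists of related factors and all protein-coding genes. Of the 9 lineage factors 6 have a peak in all 4 lists, beside 2125 of all 21866 protein-coding genes. The counts are 5 of 24 for other myeloid factors and 4 of 14 for KLF genes. They are 3 of 5 for genes listed as C/EBP relatives and 1 of 5 for MAF genes. The groups of factors were chosen with earlier results of these data known.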

How the data were processed

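The deposited peak lists, 1 per sample from an IP and an input library, hold the position and strand of each peak and, as the only measurement, the score that the authors' peak caller gave. The submitters' processing notes name cutadapt 1.9.3, HISAT2 2.0.4 and mm10. The peak caller, its settings and its threshold are not given in the sources used here. The libraries were directional, and peaks were matched to genes on their own strand, at least 1 bp being enough. Peak starts counted from 0 and were raised by 1. Exons were those of coding transcripts of GENCODE M21, and sequences came from GRCm38 of RefSeq.

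Presence of peaks, covered exonic bases and GGAC matches were computed per gene. Covered bases of 6971 genes were tested by exact permutation (two-sided, 6 labellings) with Benjamini-Hochberg adjustment. Regions are overlapping peaks of the 4 lists merged. All 9 factors are named. Of the related factors, those with a peak in all 4 lists or in both samples of a single genotype are named, as are paralogues set beside a member. A result on a related gene is not reported here. The members and lists were chosen with earlier results of these data known. Alternatives were the upper 50% of each list, lists of equal size, a gap of up to 100 bp closed between peaks, overlap of at least 50% in both directions, the replicate number as a block, all exonic bases in place of midpoints, other motif settings, other exons and each sample left out in turn. The code was tested on simulated data. Python 3.11.15, numpy 2.4.6, pysam 0.24.0, samtools 1.23.1 and matplotlib 3.10.9 were used.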

Additional observations from a re-analysis of the deposited data

How the results depend on the processing

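With the upper 50% of each list by score, factor regions with a peak in all 4 lists numbered 3, beside 17.4% of all 6050 regions at that setting. Regions in both KO and no WT sample numbered 1, beside 4.99%. The difference in peaks was -0.5, and genes with fewer covered bases in KO without overlap numbered 1, beside 6.5% of genes. GGAC was in 100% of the factor peaks, and the *Klf4* difference turned to 275 bases. The difference was -402 for *Klf2*, -167 for *Runx1* and -31 for *Bhlhe40*. Regions in both WT and no KO sample stayed at 1, beside 2.61% of all regions, but it was another region of *Runx1*. With a reciprocal overlap of 50%, regions in both WT and no KO sample numbered 3, beside 3.32% of all 13538 regions at that setting. Regions in both KO and no WT sample then numbered 1, beside 6.61%. With GGACT as the motif the share of factor peaks was 69.1%, beside 52.9% to 55.8% of all assigned peaks of a list. The greater median width of the factor peaks was not taken into account there. In the central 200 bases the share was 68.6% for GGAC, beside 62.2% of all assigned peaks. With exons of all transcripts, an alternative chosen after seeing the data, the difference in peaks was -3.5. Leaving out 1 sample at a time gave between 1 and 5 regions in both WT and no KO sample (5 without WT replicate 2, beside 18.6% of all regions, and 3 without WT replicate 1, beside 19.7%), between 0 and 1 in both KO and no WT sample (1 without WT replicate 1 or 2, beside 12.5% and 11.5%) and between 1 and 2 genes with more covered bases in KO (2 without WT replicate 2, beside 29.3% of genes), where fewer samples have to meet the condition. The *Cebpb* difference ranged from -52.5 (without WT replicate 1) to 77.5 bases and was -40 without KO replicate 1. The *Klf4* difference ranged from -510 to 456 bases (without WT replicate 2) and was 429 without KO replicate 1. Ranges were 378 to 1014 for *Maf*, -89 to -16 for *Klf2*, -1375 to -316 for *Klf6*, -1039 to -299 for *Runx1* and -63 to -62 for *Bhlhe40*. Apart from the number of samples and peaks used, the causes of these changes were not tested.

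With the replicate number as a block, 4 genes had fewer covered bases in KO in both pairs (*Runx1* beside *Klf2*, *Klf6* and *Bhlhe40*), against 10.9% of all 6971 genes, and the differences of all 7 genes were the same by construction. Nothing in the labels says that the numbers mark a shared litter or day, and the deviations of samples with the same number had a correlation of -0.0523 over 6971 genes. The unknown depth limits every statement on absent peaks, and the score orders peaks only within a list.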

Other observations

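One KO-2 peak within *Runx1* (chr16:92687571-92687945, score 274.86) lay in an exon of a non-coding transcript and was assigned to no coding gene, so it is not among the 52 peaks.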
